A study of Mus musculus with 106 samples.

Results

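The genes described here are 10 genes of the integrated stress response and the unfolded protein response, followed through the tissues of mice kept in the cold or in the warmth. They were picked by symbol (Atf4, Atf3, Ddit3, Chac1, Trib3, Asns, Hspa5, Xbp1, Dnajb9 and Sesn2), with earlier results of these data known. They are 10 of 25872 gene rows in 4 tables of bulk RNA-sequencing counts. Male C57BL/6 mice of the cold set spent 2 weeks at 10 °C, which they reached through steps of 18 °C and 14 °C that lasted 5 days each. Those of the warm set were kept for 4 weeks at 34 °C. Each set had its own controls at room temperature (22 °C). All groups are wild type by the labels, which name no drug, and their age is given as 11 weeks for the 10 °C set and as 12 weeks for the 34 °C set and all quadriceps (there with the strain written C57BL/6J). At 10 °C the tissues were interscapular brown fat (iBAT), inguinal subcutaneous fat (ingSAT), perigonadal visceral fat (pgVAT), quadriceps, liver, ileum, spleen, bone marrow, brain, hypothalamus and spinal cord, and at 34 °C they were iBAT, quadriceps, liver, ileum and brain. Most groups have 3 libraries of 2 pooled mice each, bone marrow has 6 and spinal cord 5 single mice per temperature, and in the warm set iBAT has 3 single mice at 22 °C and 2 single mice and a pool of 2 at 34 °C. The cold and the warm mice came from different suppliers, and most of their libraries were made with different kits, so that each temperature was compared with its own controls only.

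Cells that run short of amino acids or heme, meet viral RNA or build up unfolded protein in the endoplasmic reticulum (ER) switch on kinases that phosphorylate the translation factor eIF2alpha. General protein synthesis then slows while the mRNA of ATF4, a bZIP transcription factor, is translated better, and ATF4 turns on genes of amino acid supply and stress. In parallel, the ER sensor IRE1 splices the mRNA of XBP1, and XBP1 and ATF6 turn on ER chaperones and genes that clear misfolded proteins. Much of this control acts on translation, splicing and protein cleavage, which counts of mRNA per gene do not show. Brown fat burns fuel for heat and changes its mitochondria and protein synthesis with temperature.

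The 10 genes cover these arms. Atf4, Atf3 and Ddit3 (CHOP) encode transcription factors. Chac1 (a gamma-glutamylcyclotransferase that breaks down glutathione), Trib3 (a pseudokinase), Asns (asparagine synthetase) and Sesn2 (a leucine sensor and inhibitor of mTORC1) are known targets of ATF4 or CHOP. Hspa5 (BiP, the main ER chaperone of the HSP70 family), Xbp1 and Dnajb9 (ERdj4, a co-chaperone of BiP) belong to the ER arm. In GENCODE M21 on GRCm38 (the mm10 assembly the authors used) the genes lie at chr15:80255184-80257541 (Atf4), chr1:191170296-191218039 (Atf3), chr10:127290774-127296288 (Ddit3), chr2:119351229-119354381 (Chac1) and chr2:152337422-152344032 (Trib3). The others lie at chr6:7675169-7693254 (Asns), chr2:34771970-34777547 (Hspa5), chr11:5520659-5525893 (Xbp1), chr12:44205559-44210326 (Dnajb9) and chr4:132492032-132510501 (Sesn2). Ddit3 and Dnajb9 are the members that share exon bases with other genes. Exons of Ddit3 overlap a second locus of the same name over 105 bases, Mars over 68 bases on the other strand and Gm4189 over 13 bases, and those of Dnajb9 overlap Mir5627 over 14 bases.

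Promoters of 4 members are shown because they are the ones that hold a known stress response motif. They are the 250 bases before the annotated start from RefSeq on GRCm38.p6, where all 10 members had an entry, printed 5′ to 3′ on the gene's strand, with the motif in capitals. The first is Hspa5, the ER chaperone, with the ER stress response element (ERSE) at bases 65 to 47 before the start (chr2:34771840-34772089, plus strand).
Hspa5: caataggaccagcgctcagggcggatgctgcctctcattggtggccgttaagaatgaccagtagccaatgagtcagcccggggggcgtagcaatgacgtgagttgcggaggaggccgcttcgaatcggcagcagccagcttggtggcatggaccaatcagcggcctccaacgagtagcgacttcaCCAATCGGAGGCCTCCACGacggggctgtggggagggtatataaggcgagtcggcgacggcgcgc
The other 3 are those with the CARE motif TGATGNAA, the sequence bound by ATF4 with a C/EBP partner, on either strand: Chac1 (chr2:119350992-119351241, plus strand), Atf3 (chr1:191183334-191183583, minus strand) and Asns (chr6:7693210-7693459, minus strand).
Chac1: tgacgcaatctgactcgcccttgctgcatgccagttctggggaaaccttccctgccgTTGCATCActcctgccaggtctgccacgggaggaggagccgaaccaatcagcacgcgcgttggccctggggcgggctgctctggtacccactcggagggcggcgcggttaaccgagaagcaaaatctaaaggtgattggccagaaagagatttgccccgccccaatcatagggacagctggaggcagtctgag
Atf3: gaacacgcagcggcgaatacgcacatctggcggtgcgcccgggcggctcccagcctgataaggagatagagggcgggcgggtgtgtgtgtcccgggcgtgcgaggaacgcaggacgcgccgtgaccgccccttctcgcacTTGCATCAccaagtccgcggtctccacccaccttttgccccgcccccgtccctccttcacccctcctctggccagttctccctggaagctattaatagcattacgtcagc
Asns: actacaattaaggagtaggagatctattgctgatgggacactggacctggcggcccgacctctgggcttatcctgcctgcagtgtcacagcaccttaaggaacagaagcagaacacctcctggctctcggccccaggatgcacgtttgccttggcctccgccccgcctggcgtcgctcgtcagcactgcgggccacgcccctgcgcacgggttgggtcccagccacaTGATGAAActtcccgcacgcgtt
CARE was found in 3.4% of 32536 promoters of the same length and the ER stress response element in 0.114%. No member held ERSE-II (0.0307% of promoters), the UPRE core TGACGTGG (0.569%) or the CRE TGACGTCA (1.56%) in these 250 bases, all searched on both strands, and no member held more than 1 of the 5 motifs. The RefSeq starts of these 4 genes lie inside the genes as GENCODE draws them, so that part of each window, and the whole of that of Atf3, is within the gene.

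Library totals ran from 4262403 to 58290770 counts in the 76 libraries of the 10 °C set and from 29545458 to 62880248 in the 30 of the 34 °C set, which limits the lowest genes most. Each tissue carried its own cell type markers in every library. In brain, 1 library at 22 °C (replicate 2) held 49060 CPM of 5 hepatocyte markers against 788 to 1176 CPM in the other brain libraries and was left out. The deposited group mean of that tissue does not include it either. In pgVAT, 2 of the 3 libraries at 10 °C each held 18770 CPM of 5 epididymis markers, the third held 3.09 CPM and the 22 °C libraries 641 to 2977 CPM. Traces of other tissues were also found in quadriceps and spleen and are given beside the results they touch. In iBAT at 10 °C the epididymis markers summed to 2.63 to 32.9 CPM against 0 to 0.043 CPM in controls. In these bulk samples fewer cells of a type and less RNA per cell cannot be told apart.

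At 22 °C the members differed widely between tissues. Levels and orders below are of the largest table, with 8 tissues, unless another is named. The highest level of any member per length was that of Hspa5 in liver (401 ± 46.5 CPM per kb of exon, SD, 3 libraries), followed for this gene by ileum (191.8 CPM per kb), with the ranges of both apart from each other and from every other tissue of the same table. Xbp1 was also high in liver (442.9 CPM), ingSAT (345 CPM), ileum (309.7 CPM) and pgVAT (278.6 CPM), whose neighbouring ranges overlapped. Scaling by library size alone put ingSAT first for Xbp1, iBAT first for Dnajb9 and spleen first for Atf4, in place of liver.

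Atf3 at 22 °C stood out in ileum, at 39.9 ± 7.07 CPM (SD, 3 libraries), while the next tissue, iBAT, had 9.30 CPM and brain and hypothalamus had under 1 CPM. Asns was highest in brain (170.8 ± 5.004 CPM) and lowest in liver (13.5 ± 0.785 CPM), each apart from its neighbour in the order. In the table that holds muscle Asns was lowest in quadriceps (2.18 CPM), below liver (9.399 CPM) and apart from it, and iBAT (79.8 CPM) and brain (72.9 CPM) overlapped at the top. Ddit3 was highest in iBAT (29.04 ± 1.978 CPM), apart from brain (21.6 CPM), and the remaining 6 tissues lay between 12.0 and 15.98 CPM. Chac1 was highest in brain within that table (10.41 ± 0.9005 CPM). In the table that holds muscle, Chac1 reached 116.6 ± 34.1 CPM over the 6 quadriceps libraries at 22 °C, apart from liver (6.31 CPM), brain, ileum and iBAT. Trib3 was at 7.89 CPM in iBAT and 0.566 CPM in hypothalamus, the ends of its order in the largest table, and its ranges in iBAT, pgVAT, liver and ingSAT overlapped neighbour by neighbour. In the table that holds muscle Trib3 was highest in liver (23.7 ± 1.15 CPM), apart from ileum (12.9 CPM). Sesn2 was highest in iBAT (43.8 CPM) and pgVAT (38.9 CPM), which overlapped, and the order of these 2 turned under scaling by library size.

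**Figure D1:**
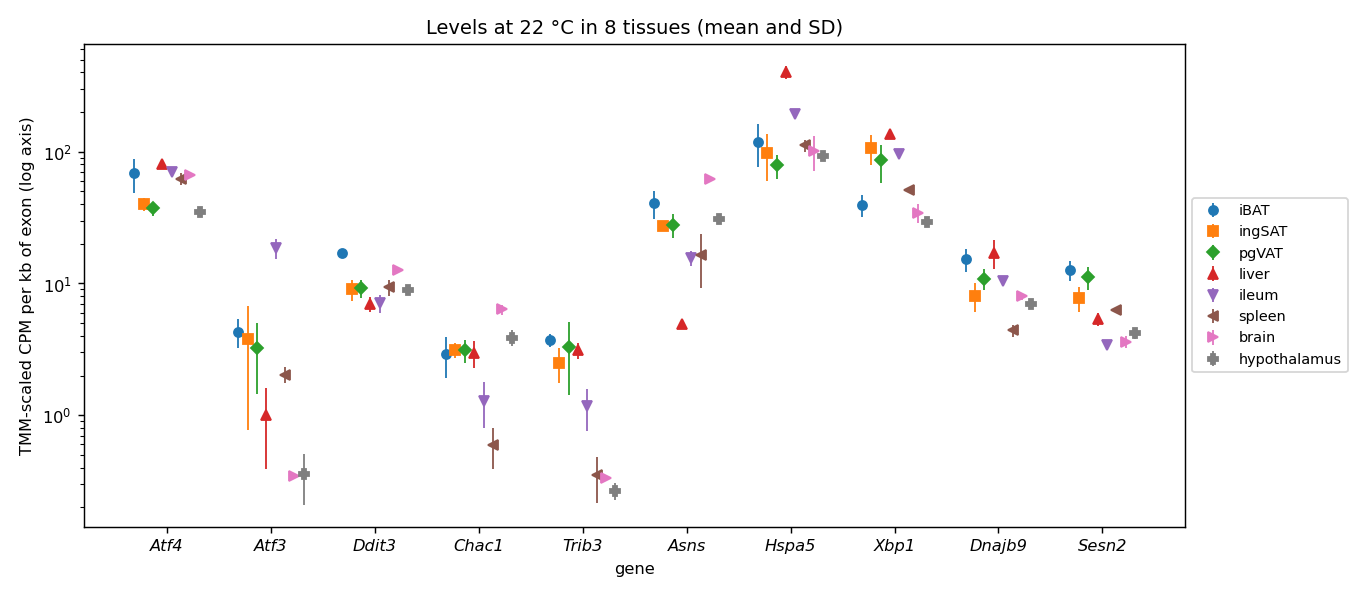
Levels of the 10 genes at 22 °C in the 8 tissues of the largest table, as TMM-scaled CPM per kb of exon on a log axis, with points for the mean and bars for the SD of the libraries of a tissue. Hspa5 in liver stands highest at 401 CPM per kb, and Atf3 in ileum stands apart from the other tissues at 18.5 CPM per kb.

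Over the 11 tissues at 10 °C, 107 pairs of gene and tissue could be tested and 13 were called, 8 higher and 5 lower, where a pair is called if its fold exceeds 1.5 and its p before adjustment is 0.05 or less, the limits of the study. That is 12.1% of the members' pairs against 4.8% of all pairs of gene and tissue. Over the 5 tissues at 34 °C, 7 of 49 pairs were called (4 higher, 3 lower), which is 14.3% against 5.31% of all. All adjusted p values below come from the quasi-likelihood test of edgeR, adjusted by the Benjamini-Hochberg method over all genes of a comparison. Of the called pairs, 2 at 10 °C (Sesn2 in iBAT and Dnajb9 in ingSAT) and 5 at 34 °C (all in iBAT) also had an adjusted p under 0.05. Atf4 was called in no tissue at either temperature in the main comparisons, with log2 changes from -0.13 to 0.60 at 10 °C and from -0.04 to 0.22 at 34 °C. In ileum at 10 °C the log2 changes of all 10 members were above 0, from 0.04 to 0.66, while in every other comparison the members had changes of both signs. The called pairs were spread over 8 tissues at 10 °C.

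**Figure D2:**
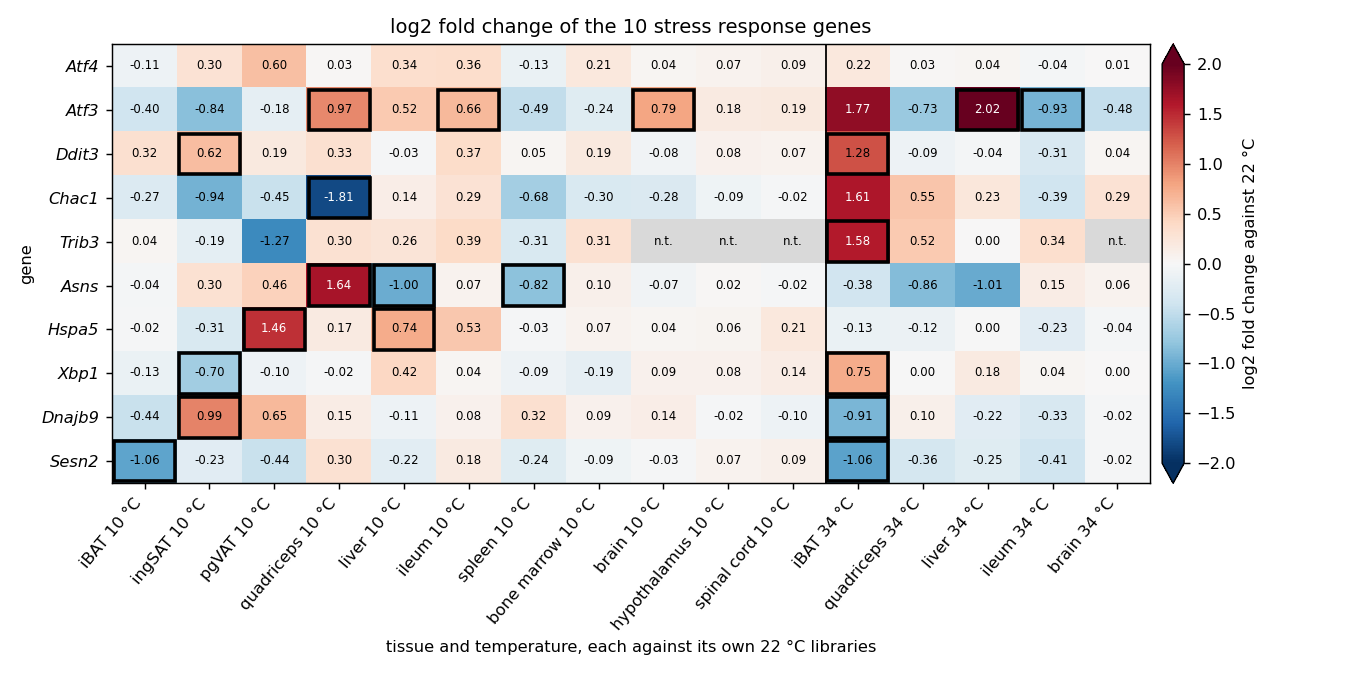
The log2 fold change of each gene (rows) in each tissue and temperature (columns) against the 22 °C libraries of the same set, with black frames around called pairs and n.t. for pairs too low to test. The frames are scattered over 8 tissues at 10 °C, while 5 of the 7 frames at 34 °C lie in iBAT.

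Brown fat at 34 °C showed the broadest change. There 5 of 10 members were called, 3 higher (Ddit3, Trib3, Xbp1) and 2 lower (Dnajb9, Sesn2), in a comparison where 19.4% of all genes tested were called, 7.19% lower, and 28.9% had an adjusted p under 0.05. The median absolute log2 change of the members was 0.99 against 0.30 over all genes. Ddit3, the transcription factor CHOP, was measured at 26.6, 33.8 and 30.9 CPM at 22 °C and at 71.1, 87.8 and 62.9 CPM at 34 °C. Every 34 °C library was thus above every control, and the change was 1.28 ± 0.15 on the log2 scale (standard error, adjusted p = 0.0021). Trib3, the pseudokinase induced by CHOP, was at 10.9, 12.8 and 19.9 CPM in controls and at 20.4, 73.1 and 37.3 CPM at 34 °C. Its groups did not overlap but the lowest warm library lay close to the highest control, with a log2 change of 1.58 ± 0.45 (adjusted p = 0.037). It ranged from 0.97 to 1.92 when single libraries were left out.

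Within the ER arm of iBAT at 34 °C, Xbp1 and Dnajb9 moved in opposite directions. Xbp1 was at 81.0, 71.2 and 70.7 CPM in controls and at 146.3, 105.3 and 123.2 CPM in the warm, a log2 change of 0.75 ± 0.13 (adjusted p = 0.0077). Dnajb9, the BiP co-chaperone, was at 56.9, 38.8 and 42.4 CPM in controls and at 20.3, 31.2 and 21.8 CPM at 34 °C, a log2 change of -0.91 ± 0.20 (adjusted p = 0.017). Neither gene's groups overlapped. Hspa5 was at 432.2, 395.0 and 400.1 CPM in controls and at 369.5, 416.3 and 334.5 CPM in the warm, with overlapping groups and a log2 change of -0.13. The level of Xbp1 counted here includes spliced and unspliced mRNA.

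Sesn2, which restrains mTORC1, fell in brown fat at both temperatures. At 34 °C it went from 25.9, 21.2 and 19.4 CPM to 9.76, 14.7 and 7.27 CPM, a log2 change of -1.06 ± 0.25 (adjusted p = 0.021). At 10 °C it went from 30.7, 36.02 and 41.1 CPM to 12.1, 21 and 19.1 CPM, a log2 change of -1.06 ± 0.20 (adjusted p = 0.013). In both sets every exposed library was below every control of that set, and the sets share no library. Sesn2 was the only member called in iBAT at 10 °C, where 13.2% of all genes tested were called and 7.24% were called lower. Dnajb9 at 10 °C was at 26.97, 19.7 and 23.7 CPM against 29.5, 27.7 and 38.3 CPM in controls, a log2 change of -0.44 that stayed under the fold limit (adjusted p = 0.12).

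The remaining members of brown fat did not pass the limits in either set. At 34 °C Atf3 read 6.03, 43.4 and 2.29 CPM against 4.42, 8.88 and 1.86 CPM in controls, so that 1 library carried its log2 change of 1.77, and it was called without the lowest warm library (replicate 3, 2.28). The 34 °C library with Atf3 at 43.4 CPM (replicate 2) had 3033 CPM over 8 immediate early genes, and the other iBAT libraries of that set had 265 to 1131 CPM. Chac1 read 6.88, 4.48 and 8.03 CPM against 0.70, 4.90 and 0.71 CPM, with a log2 change of 1.61 and overlapping groups. Without the highest control (22 °C replicate 2) Chac1 changed by 3.19 (adjusted p = 0.0020) and was called, as it was under the exact test (1.62), library size only (1.91) and the lowest filter (1.606). Asns, at 87.0 to 120.2 CPM in controls and 68.0 to 84.9 CPM in the warm, changed by -0.38 on the log2 scale (adjusted p = 0.078).

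Marker lists moved with temperature in iBAT as well, and their part in these results was not tested. At 34 °C the 5 brown adipocyte markers summed to 7864 to 8587 CPM against 10330 to 13510 CPM in controls, and 5 macrophage markers to 239.5 to 383.7 CPM against 97.6 to 160.2 CPM, with every marker of both lists detected. Skeletal muscle markers summed to 0.64, 3746 and 6.15 CPM in control replicates 1 to 3 and to 931 to 3855 CPM at 34 °C. Replicate 2, with 3746 CPM, is the control without which Chac1 was called. At 22 °C Chac1 was at 116.6 CPM in quadriceps and 1.66 CPM in iBAT. At 10 °C muscle markers were lower, at 2057 to 4167 CPM against 5816 to 8754 CPM, and the 8 immediate early genes summed to 234.8 to 380.2 CPM against 500.8 to 834 CPM.

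**Figure D3:**
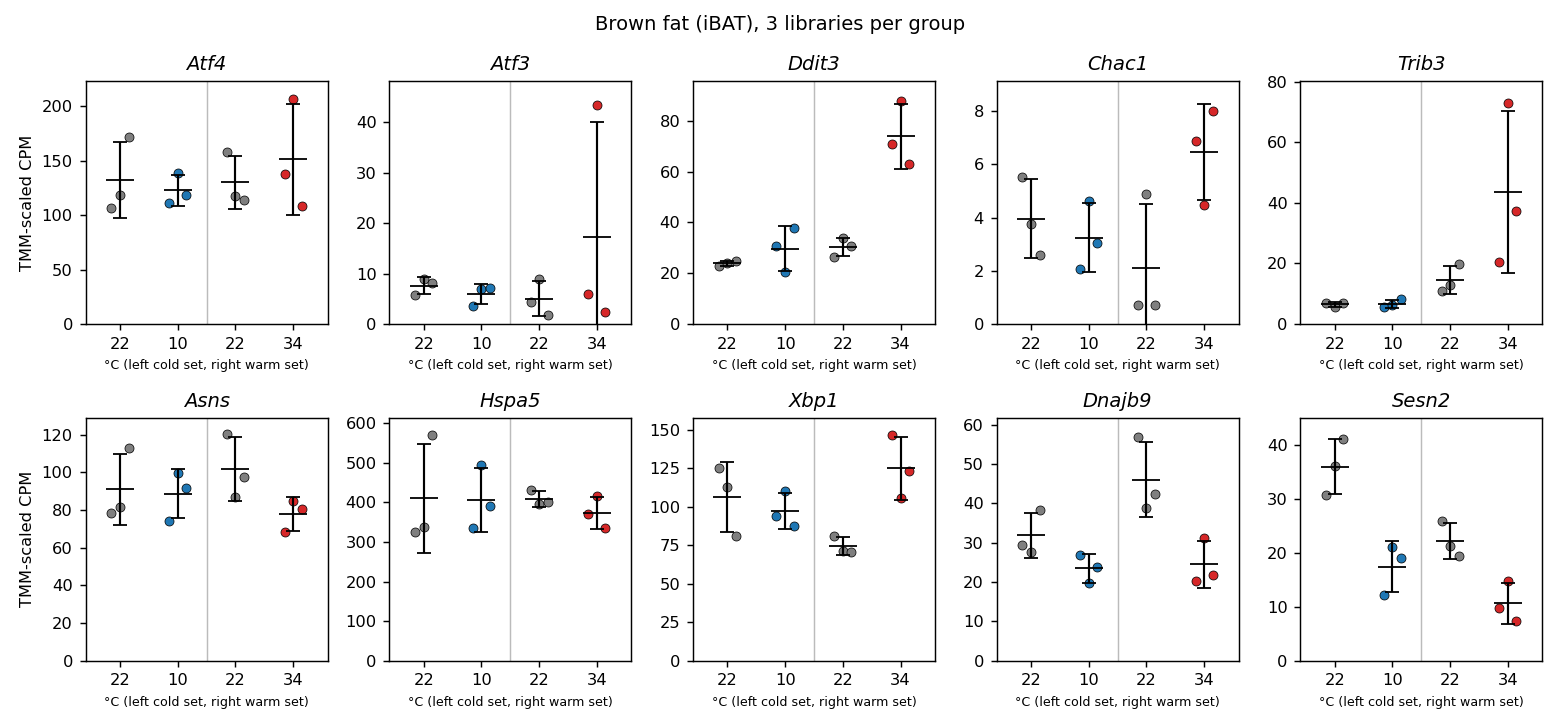
TMM-scaled CPM of the 10 genes in every iBAT library, with grey points for 22 °C, blue for 10 °C and red for 34 °C, and bars for the mean and SD of 3 libraries (cut off at 0 where the SD exceeds the mean). Sesn2 lies below its controls in both sets, while Ddit3, Trib3 and Xbp1 lie above theirs at 34 °C.

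In quadriceps 3 of 10 members were called at 10 °C, in a comparison that called 3.83% of all genes tested. Chac1 was lower, and Asns and Atf3 were higher. These 3 are also the members with CARE in the promoter windows printed above, and the part of that motif was not tested. Chac1, which was more abundant in quadriceps than in the other tissues of its table, was at 119.5, 91.1 and 82.5 CPM in controls and at 36.3, 34.9 and 12.5 CPM at 10 °C. Its log2 change was -1.81 ± 0.38 (adjusted p = 0.22). Asns was low, at 1.86, 1.25 and 0.88 CPM in controls and 3.97, 6.38 and 2.06 CPM at 10 °C, a log2 change of 1.64 ± 0.45 (adjusted p = 0.39). Atf3 went from 5.05, 2.35 and 4.23 CPM to 8.82, 8.26 and 5.59 CPM, a log2 change of 0.97 ± 0.30 (adjusted p = 0.40). In each of the 3 genes the groups did not overlap, and each call was kept in all 12 alternatives run on this comparison, including all 6 control libraries at 22 °C, where the stricter limit on the adjusted p is not counted among the alternatives here or below. None of the 3 had an adjusted p under 0.05 in the main comparison. The other transcription factor genes read 182.2 to 192.7 CPM (Atf4) and 12.3 to 14.6 CPM (Ddit3) at 10 °C against 165.1 to 196.1 and 9.81 to 11.3 CPM in controls, and neither was called.

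Fat markers were higher in the cold quadriceps libraries. The 5 brown adipocyte markers summed to 80.8 to 328 CPM at 10 °C against 34.2 to 55.3 CPM in controls, and the 5 white adipocyte markers to 249.7 to 892.7 CPM against 158.8 to 276.4 CPM, while Asns in iBAT of the same table was at 79.8 CPM at 22 °C and Chac1 at 1.66 CPM. The library at 10 °C with the fewest fat markers (replicate 3) had the lowest Asns and Atf3 of its group and the lowest Chac1. One control library (replicate 1) held 1365 CPM of 5 pancreas acinar markers against 0.0543 to 8.63 CPM in the other 5 libraries, and without it the calls of all 3 genes were kept. Epididymis markers reached 218.4 CPM in 1 library at 10 °C and were at 0 in the controls. What part the fat cells had in these changes was not tested.

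At 34 °C no member was called in quadriceps (1.21% of all genes tested were called). Chac1 read 77.3, 165.8 and 126.5 CPM at 34 °C against 126.2, 61.9 and 63.9 CPM in the controls of that set, and Asns 0.58, 1.03 and 1.83 CPM against 3.06, 1.46 and 1.71 CPM, both with overlapping groups. The responses at 10 °C and 34 °C could be compared directly in this tissue, whose 12 libraries are in a single table. No member's response differed between the temperatures at an adjusted p under 0.05, where 0.482% of all genes did, and 4 members had an unadjusted p under 0.05. The response at 10 °C minus that at 34 °C was -2.36 ± 0.57 for Chac1 (adjusted p = 0.12), 2.498 ± 0.699 for Asns (adjusted p = 0.18), 1.69 ± 0.57 for Atf3 (adjusted p = 0.27) and 0.66 ± 0.28 for Sesn2 (adjusted p = 0.36), all on the log2 scale.

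**Figure D4:**
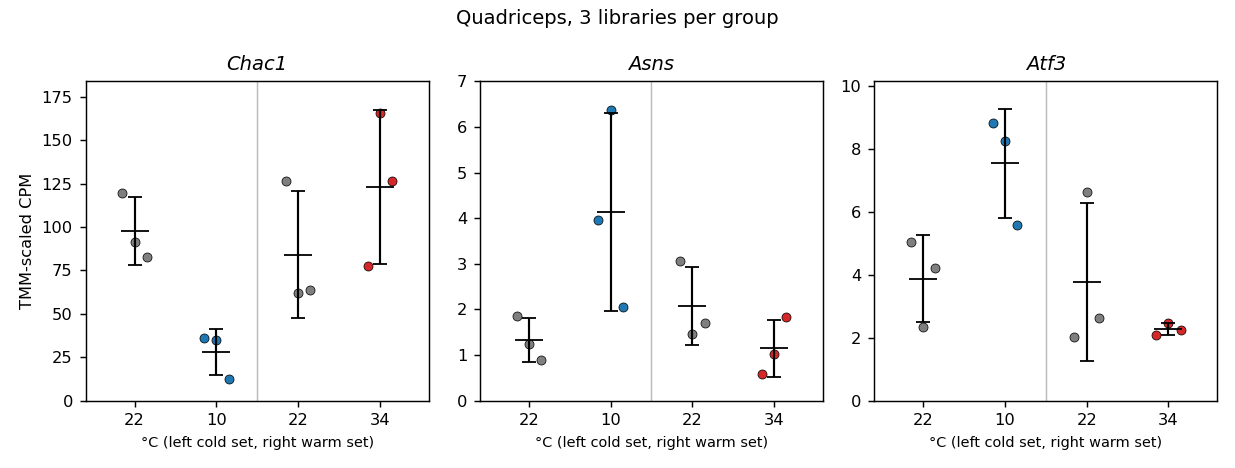
TMM-scaled CPM of Chac1, Asns and Atf3 in the 12 quadriceps libraries, with grey points for 22 °C, blue for 10 °C and red for 34 °C and bars for the mean and SD of 3 libraries. The 3 blue points lie below their controls for Chac1 (12.5 to 36.3 CPM) and above them for Asns and Atf3, while red and grey points overlap.

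In subcutaneous fat at 10 °C, 3 of 10 members were called where 16.3% of all genes were (7.2% higher, 9.14% lower, 7.51% with an adjusted p under 0.05). Dnajb9 rose from 19.02, 18.5 and 28.6 CPM to 46, 44.9 and 40.8 CPM, a log2 change of 0.99 ± 0.19 (adjusted p = 0.029), with groups apart and the call kept in all 12 alternatives. Ddit3 rose from 14.7, 14.5 and 20.4 CPM to 26.02, 22.5 and 28.1 CPM, a log2 change of 0.62 ± 0.18 (adjusted p = 0.081). The call of Ddit3 was lost without 10 °C replicate 3 (0.57) and without 22 °C replicates 1 (0.55) or 2 (0.54). Xbp1 fell from 320.1, 468.1 and 315.7 CPM to 240.3, 214.1 and 225.5 CPM, a log2 change of -0.70 ± 0.18 (adjusted p = 0.063), and its call was lost without 22 °C replicate 2 (-0.49). Dnajb9 and Xbp1 thus went opposite ways in ingSAT at 10 °C and, with the signs turned, in iBAT at 34 °C.

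Hspa5 in ingSAT read 429.3, 316.8 and 324.8 CPM at 10 °C against 612.7, 431.8 and 278.8 CPM and was not called. Among 14 other ER chaperones and folding enzymes 4 were called, all lower, among them Pdia4, a protein disulfide isomerase (from 176.1 ± 36.5 to 87.7 ± 13.2 CPM, SD of 3 libraries, log2 change -1.01 ± 0.19, adjusted p = 0.028). The list's median log2 change was -0.33 against -0.01 over all genes. Macrophage markers (952.4 to 1065 CPM against 1122 to 1813 CPM) and neutrophil markers (5.88 to 10.3 CPM against 21.7 to 43.0 CPM) were also lower at 10 °C, with every marker of both lists detected, and B cell markers ranged from 10.7 to 495.5 CPM at 10 °C. White adipocyte markers summed to 23580 to 23870 CPM at 10 °C against 14130, 15730 and 24700 CPM in controls. The control with 24700 CPM (replicate 3) had the highest Ddit3 and Dnajb9 and the lowest Hspa5 and Xbp1 of the controls. Skeletal muscle markers were at 23.5 to 1579 CPM at 10 °C against 1107 to 2634 CPM. The part of these markers in the result was not tested.

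In visceral fat at 10 °C, 1 of 10 members was called where 7.94% of all genes were (4.46% higher, 3.47% lower). Hspa5 read 440.3, 360.6 and 322.5 CPM in controls and 594.8, 516.3 and 1985 CPM at 10 °C, a log2 change of 1.46 ± 0.59 (adjusted p = 0.59). All 3 exposed libraries were above the controls, but replicate 3 was far above the rest and without it the change was 0.57 and not called. The call was also lost without any 1 of the controls, at 1.37 to 1.60. Replicate 3 is 1 of the 2 libraries with 18770 CPM of epididymis markers. Without both of them, an alternative chosen after seeing the data that leaves a single library assumed to vary like the controls, Hspa5 changed by 0.48 (adjusted p = 0.88), no ER chaperone was called and Asns was (log2 change 1.11, adjusted p = 0.27).

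Other ER chaperones were higher in pgVAT as well. Of 14 ER chaperones and folding enzymes 5 were called, all higher, led by Sdf2l1 (log2 change 2.28), Manf (1.93), Creld2 (1.77) and Pdia6 (1.46), and the list's median was 1.19 against 0.03 over all genes. Derl3, a factor of ER-associated degradation, changed by 3.51 and the amino acid transporters Slc7a5 and Slc7a11 by 4.53 and 3.65, with overlapping groups in all of these but Pdia6. All of these had an adjusted p of 0.59, and in the comparison no gene had one under 0.05. The part of the epididymis in these values was not tested beyond the fit without both libraries. Plasma cell markers summed to 89.7, 17.8 and 231.1 CPM in the 10 °C libraries of pgVAT against 17.4 to 26.3 CPM in controls. White adipocyte markers summed to 12270, 22730 and 7972 CPM against 18080 to 27270 CPM, with every marker of both lists detected. The plasma cell list holds Derl3 itself. The part of these cell types was not tested.

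Liver at 10 °C had 2 called members of 10, with 3.28% of all genes called (2.54% lower). Hspa5 rose from 971.2, 1014.5 and 801.7 CPM to 1851, 1203 and 1592 CPM, a log2 change of 0.74 ± 0.16 (adjusted p = 0.095). Asns fell from 7.89, 7.23 and 7 CPM to 3.19, 3.61 and 4.21 CPM, a log2 change of -0.997 ± 0.154 (adjusted p = 0.094). The groups of both were apart and both calls were kept in all 12 alternatives. Xbp1 (log2 change 0.42 ± 0.09, adjusted p = 0.10) and Atf4 (0.34 ± 0.10, adjusted p = 0.14) were above their controls in every cold library but under the fold limit. Creld2 (log2 change 1.10) and Manf (0.66), both secreted or ER-resident proteins of the unfolded protein response, and Derl3 (1.74) were called higher, with adjusted p from 0.13 to 0.20. Hepatocyte markers were also higher at 10 °C (84290 to 87860 CPM against 63510 to 70400 CPM), all 5 detected.

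In ileum at 10 °C, 1 of 10 members was called where 2.71% of all genes were (1.44% higher, 1.26% lower), and 0.0639% had an adjusted p under 0.05. Atf3 rose from 47.4, 33.1 and 40.4 CPM to 61.9, 70.1 and 58.1 CPM, a log2 change of 0.66 ± 0.14 (adjusted p = 0.11). The call was lost without 10 °C replicate 2 (0.57) or 22 °C replicate 2 (0.53), which bring it under the fold limit. Hspa5 read 1319.6, 1086.5 and 1150.3 CPM against 884.5, 773.3 and 797.7 CPM (log2 change 0.53 ± 0.10, adjusted p = 0.091). Atf4 read 222.4, 208.4 and 211.7 CPM against 167.8, 168.0 and 166.0 CPM (0.36 ± 0.06, adjusted p = 0.067). Both were apart from their controls and under the fold limit. The median log2 change of the 10 members was 0.33 in ileum, against -0.01 over all genes. Enterocyte markers summed to 13430 to 15170 CPM at 10 °C against 8648 to 9606 CPM, all 5 detected, and their part was not tested.

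Atf3 in ileum fell at 34 °C, the opposite sign. It read 41.4, 45.2 and 66.8 CPM in the controls of that set and 32.3, 26.4 and 21.6 CPM in the warm, a log2 change of -0.93 ± 0.22 (adjusted p = 0.59), where 2.83% of all genes were called. The groups did not overlap and the call was kept in all 11 alternatives. Of the other members only Sesn2 had an unadjusted p under 0.05 there (log2 change -0.41, adjusted p = 0.59). Whether the responses of Atf3 in ileum at the 2 temperatures differ was not tested, as they are in separate tables.

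Liver at 34 °C called 1 of 10 members (3.38% of all genes). Atf3 read 1.5, 8.42 and 0.73 CPM against 0.40, 1.39 and 0.88 CPM, so that 1 library carried the log2 change of 2.02 ± 0.84 (adjusted p = 0.42). Without that library (34 °C replicate 2) it was 0.35 and not called, and the call was also lost without control replicate 1 (1.66) or 3 (2.02) and under DESeq2 (1.99). Hspa5 read 480.1, 770.4 and 464.3 CPM against 466.8, 710.2 and 538.5 CPM. Of the ER genes Sdf2l1 (log2 change -1.23 ± 0.21, adjusted p = 0.067), Creld2 (-0.66, adjusted p = 0.44) and Derl3 (-2.44 ± 0.57, adjusted p = 0.16) were called lower. Creld2 and Derl3 were thus called higher in liver at 10 °C and lower at 34 °C, each against its own controls. The groups overlapped for Creld2 in both sets and for Derl3 at 10 °C. Hepatocyte markers were higher in the warm liver (133400 to 135600 CPM against 97570 to 110000 CPM, all 5 detected). Plasma cell markers also summed higher (265.7 to 323.9 against 219.6 to 243.0 CPM, 1 of 5 at 0 in every library), although their list holds Derl3, which was lower. Pancreas acinar markers were lower (13.1 to 15.5 against 19.3 to 29.99 CPM, 2 of 5 at 0). The part of these markers was not tested.

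**Figure D5:**
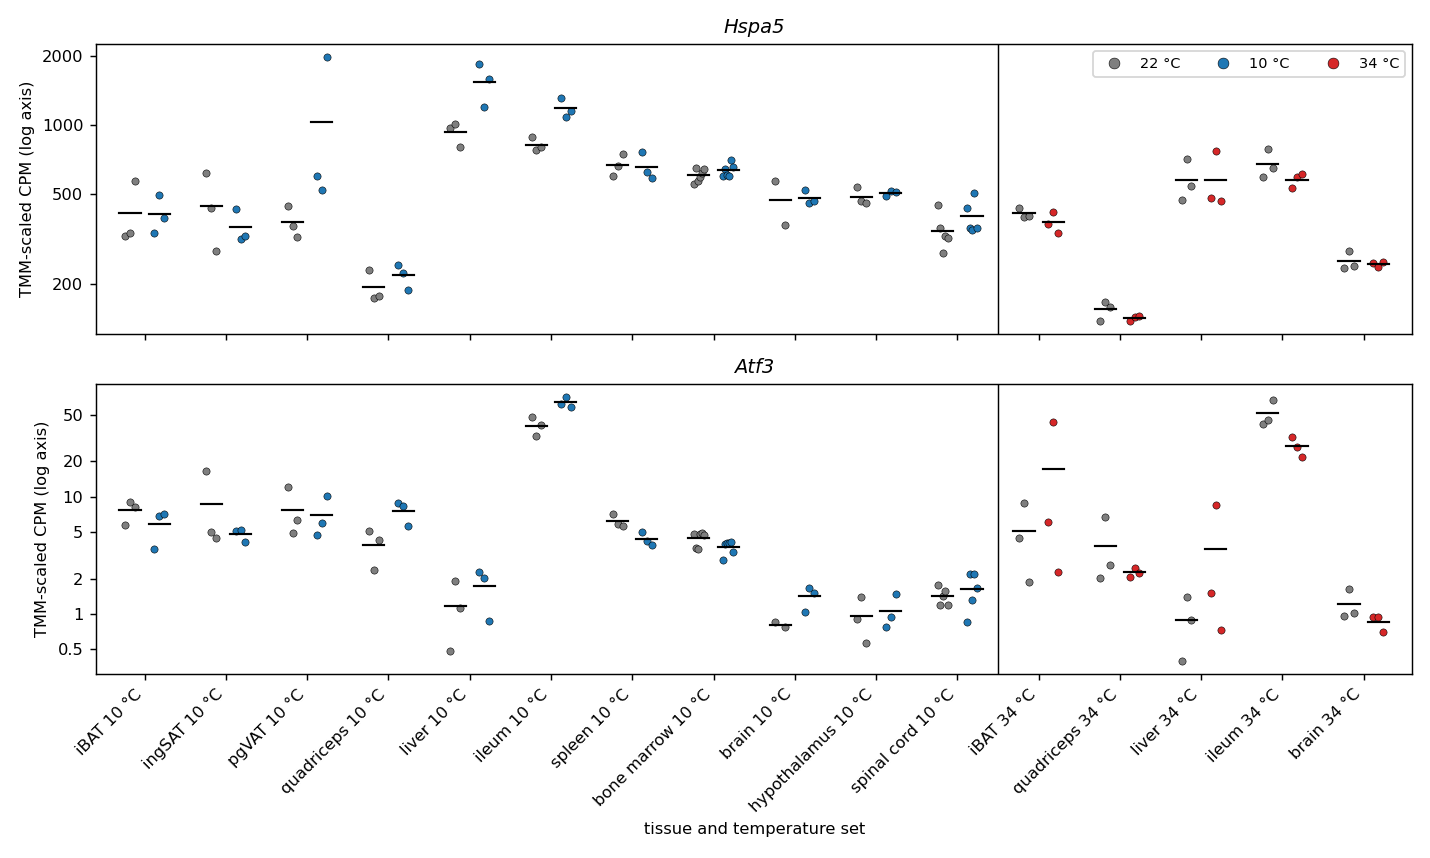
TMM-scaled CPM of Hspa5 (top) and Atf3 (bottom) in every library of the 16 comparisons on a log axis, with grey points for 22 °C, blue for 10 °C, red for 34 °C and black lines for group means. Hspa5 is above its controls in pgVAT, liver and ileum at 10 °C, and Atf3 in ileum is above its controls at 10 °C and below them at 34 °C.

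In spleen at 10 °C, 1 of 10 members was called (2.68% of all genes, 2.04% lower). Asns read 28.2, 39.2 and 40.9 CPM against 37.7, 59.0 and 94.1 CPM, a log2 change of -0.82 ± 0.30 with overlapping groups (adjusted p = 0.49). The call was lost without 10 °C replicate 1 (-0.65) and without 22 °C replicate 3 (-0.42). The 5 pancreas acinar markers ranged from 15.5 to 2992 CPM at 10 °C and from 17.4 to 1501 CPM in controls, and were at 157.6 CPM in the control with the most Asns. Neutrophil precursor markers were lower in the cold (15.4 to 27.3 CPM against 102.1 to 174.7 CPM), and their part was not tested.

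Bone marrow at 10 °C had no called member (1.29% of all genes were called, 0.647% in each direction). Atf4 nevertheless had an adjusted p of 0.024, at 299.1 to 368.8 CPM in 6 mice against 259.1 to 315.7 CPM in 6, a log2 change of 0.21 ± 0.06. Ddit3 changed by 0.19 ± 0.06 (adjusted p = 0.046), at 27.7 to 35.2 CPM against 24.2 to 27.8 CPM. The groups overlapped for both genes. In that tissue 19% of all genes had an adjusted p under 0.05, so these 2 of 10 members are near the background.

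In brain at 10 °C, 1 of 9 members tested was called (0.801% of all genes, 0.515% higher), Atf3 at 1.04, 1.68 and 1.51 CPM against 0.85 and 0.77 CPM. Its log2 change was 0.79 ± 0.33 (adjusted p = 0.50). The call was lost under DESeq2 (0.80), without 10 °C replicate 2 (0.64) or 3 (0.74) and without either control (0.846 and 0.715). With all 3 controls it changed by 0.18. The 8 immediate early genes, which neurons and many other cells switch on within minutes, summed to 328.3 to 414.5 CPM in the cold brain against 202.4 to 240.8 CPM, and 5 of them were called higher, each with an adjusted p under 0.05. Their part in the change of Atf3 was not tested.

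No member was called in hypothalamus (0.578% of all genes) or spinal cord (0.271%, of which 0.0904% of all were lower, and 0.00695% with an adjusted p under 0.05) at 10 °C or in brain at 34 °C (0.193%). At an unadjusted p under 0.05 the counts were 0, 1 (Atf4 in spinal cord, log2 change 0.09) and 1 (Chac1 in brain at 34 °C, 0.29). The median absolute log2 change of the members was 0.07 in hypothalamus, 0.09 in spinal cord and 0.04 in brain at 34 °C, beside 0.06, 0.07 and 0.05 over all genes. Trib3 was too low to test in these 3 comparisons and in brain at 10 °C, so that 9 of 10 members passed the filter on low counts there.

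Whether the response of a member differed between tissues was tested across all tissues of a table together. These fits treated all libraries as independent, and whether libraries of different tissues share mice was not examined. At 10 °C, over the 8 tissues of the largest table, 4 members differed at an adjusted p under 0.05, where 16.4% of all genes did. These were Dnajb9 (adjusted p = 0.015), Sesn2 (0.025), Asns (0.030) and Xbp1 (0.043). When each of the 47 libraries was left out in turn, Dnajb9 stayed under 0.05 every time, Asns 45 times, Sesn2 44 times and Xbp1 only 21 times. Hspa5 had an adjusted p of 0.052. At 34 °C, over 5 tissues, Ddit3 (adjusted p = 0.00035) and Xbp1 (0.0040) differed, where 12.8% of all genes did, and both did so in all 30 fits without 1 library. The largest response of both was that of iBAT.

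The wider pathway was read from lists of its other genes. Among 8 sensors and controls of eIF2alpha, Ppp1r15a (GADD34, which lets the phosphatase reverse the block on translation) fell in iBAT at 10 °C from 22.1 to 11.1 CPM (log2 change -0.995 ± 0.178, adjusted p = 0.0097). It was the 1 call among 7 tested there, where 13.2% of all genes were called. At 34 °C in iBAT Ppp1r15a read 46.8 against 21.9 CPM (1.10 ± 0.45, adjusted p = 0.10) and was called, while Eif2ak1 (the heme-regulated kinase, -0.585, adjusted p = 0.0035) and Ppp1r15b (-0.63, adjusted p = 0.019) fell. These are 1 higher and 2 lower of 8 tested, where 12.2% of all genes were called higher and 7.19% lower. In that comparison 28.9% of all genes had an adjusted p under 0.05. In all other tissues the single call of this list was Ern1, the IRE1 sensor, in pgVAT at 10 °C (1.2, adjusted p = 0.59), where 7.94% of all genes were called.

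Of 17 ATF4 targets of amino acid supply, 5 of 15 tested were called in iBAT at 34 °C, 4 higher and 1 lower, where 19.4% of all genes were called (12.2% higher, 7.19% lower). Phgdh, the first enzyme of serine synthesis, rose from 11.7 to 67.5 CPM (log2 change 2.53 ± 0.26, adjusted p = 0.0016) and Pck2, the mitochondrial PEP carboxykinase, from 31.9 to 75.0 CPM (1.23 ± 0.11, adjusted p = 0.0010). Psph, the last enzyme of serine synthesis, fell from 38.0 to 17.5 CPM (-1.12 ± 0.10, adjusted p = 0.0011), so the serine pathway did not move as one. At 10 °C in iBAT the signs of both serine enzymes were the other way, with Phgdh at -1.02 ± 0.34 (adjusted p = 0.089) and Psph at 1.01 ± 0.17 (adjusted p = 0.0073). Mthfd2 was also called higher there (0.95, adjusted p = 0.024) and Cth lower (-0.71, adjusted p = 0.067). In that comparison 2 of 13 targets tested were called higher and 2 lower, where 13.2% of all genes were called. In ingSAT at 10 °C Phgdh (-1.14, adjusted p = 0.045) and Psph (0.98, adjusted p = 0.019) had the same signs as in cold iBAT. Pck2 (-0.75, adjusted p = 0.015) and Pycr1 (-1.12, adjusted p = 0.087) were also called lower there. In that comparison 1 of 16 targets tested was called higher and 4 lower, where 16.3% of all genes were called. Asns changed by -0.04 in iBAT and 0.30 in ingSAT at 10 °C and was not called there.

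Among 9 further ATF4 targets, of which 7 were tested, Atf5, a transcription factor of the mitochondrial stress response, rose in iBAT at 10 °C from 59.3 to 165 CPM (log2 change 1.48 ± 0.11, adjusted p = 0.00029). It was the single call of that list in the tissue, where 13.2% of all genes were called. In pgVAT at 10 °C Atf5 was called lower, with groups apart (from 62.8 to 35.5 CPM, -0.82 ± 0.26, adjusted p = 0.59). There 7.94% of all genes were called. Nupr1 rose in iBAT at 34 °C (0.97 ± 0.12, adjusted p = 0.0027), while Cebpb was called lower (-0.77 ± 0.31, adjusted p = 0.0995), where 19.4% of all genes were called. Vldlr rose in liver at 34 °C (2.49 ± 0.34, adjusted p = 0.028), where 3.38% were called. In 77 tests of the list at 10 °C, 3 calls were higher and 4 lower. In 34 tests at 34 °C, 2 were higher and 2 lower. Of all pairs of gene and tissue 4.8% and 5.31% were called. Of 12 aminoacyl-tRNA synthetases none was called at 10 °C in 132 tests over the 11 tissues, where 4.8% of all pairs of gene and tissue were called. Of these tests 6 had an adjusted p under 0.05, all in bone marrow, where 19% of all genes had one. At 34 °C only Gars was called (iBAT, -0.77 ± 0.09, adjusted p = 0.0020), in a comparison that called 19.4% of all genes.

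ER chaperones in brown fat moved little as a list. At 10 °C Manf (1.0 ± 0.123, adjusted p = 0.0019) and Sdf2l1 (1.01 ± 0.21, adjusted p = 0.019) rose among 14 tested, where 13.2% of all genes were called. The list median was 0.20 against -0.02 over all genes, while Hspa5 changed by -0.02. At 34 °C, where 19.4% of all genes were called, Sdf2l1 rose (0.89, adjusted p = 0.040) and Creld2 fell (-0.64, adjusted p = 0.012), with a list median of 0.01. Derl1, which moves misfolded proteins out of the ER, rose at 10 °C (0.92 ± 0.12, adjusted p = 0.0026) and fell at 34 °C (-0.81 ± 0.14, adjusted p = 0.0073). Of 5 mitochondrial stress markers Hspe1, the cochaperone of HSP60, rose in ingSAT at 10 °C (1.10 ± 0.17, adjusted p = 0.016) and fell in iBAT at 34 °C (-0.91 ± 0.13, adjusted p = 0.0038).

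Immediate early genes, which many stimuli and the handling of tissue switch on, moved in several tissues, and Atf3 is itself such a gene. Of 8 tested, 6 fell in iBAT at 10 °C, among them Nr4a1 (from 167.2 to 28.3 CPM, adjusted p = 0.0045), and 5 in pgVAT (Fos from 45.8 to 12.0 CPM, adjusted p = 0.42), where 13.2% and 7.94% of all genes were called. In the cold brain, with 0.801% of all genes called, 5 rose, among them Nr4a1 (from 22.4 to 56.3 CPM, adjusted p = 6.4e-05), and in spinal cord Fos did (from 12.2 to 21.5 CPM, adjusted p = 0.042). In liver at 34 °C 3 were higher and 1 lower, where 3.38% of all genes were called. In iBAT at 34 °C, with 19.4% of all genes called, Jun rose (from 65.2 to 218.6 CPM, adjusted p = 0.031). In brain at 34 °C, where 0.193% of all genes were called, Fos (from 33.9 to 18.998 CPM) and Nr4a1 (from 106.1 to 65.4 CPM) were called lower, both with an adjusted p of 1.0.

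Over the 16 groups of tissue and temperature in the largest table, the 3 genes most alike each member in mean log2 CPM were ranked among 13995 genes. These are descriptions, since the groups share tissues and libraries. Hspa5 was most like the ER chaperone Hsp90b1 (Pearson r = 0.969), Pdia5 (0.968) and Pdia6 (0.965). Xbp1 was most like Ugt1a2 (0.963), Ugt1a7c (0.962) and Sec24d (0.961), the last a coat protein of ER export. Atf4 was most like Smu1 (0.952), Atf6 (0.922) and Nfkbib (0.919), and Atf3 like B3gnt3 (0.978), Mogat2 (0.966) and Cldn15 (0.961), of which Mogat2 and Cldn15 are intestinal genes. For Trib3 they were Adipor2 (0.979), Aco1 and Bcap31 (both 0.974), for Asns Slc25a4 (0.953), Rcor2 (0.952) and G6pc3 (0.949), and for Chac1 Tsen34 (0.973), Cry2 (0.960) and Dctn2 (0.955). For Ddit3 they were Strn3 (0.928), Btbd1 (0.912) and Isca1 (0.906), for Dnajb9 Cyb5b (0.901), Mocs2 (0.897) and Pex11a (0.896), and for Sesn2 Rufy4 and Dtx2 (both 0.906) and 4931406P16Rik (0.904). Between members the correlation was highest for Trib3 with Dnajb9 (0.779) and Atf4 with Hspa5 (0.777) and lowest for Asns with Hspa5 (-0.793).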

How the data were processed

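Bulk RNA sequencing measured mRNA in 106 libraries. The authors aligned reads to mm10 with STAR, counted them per gene with HTSeq and deposited raw counts in 4 tables. The labels name STAR 2.5.3a, HTSeq 0.6p1 and Picard 1.141, and the paper's methods give other versions of the first 2. Neither step was repeated. Samples were grouped by their labels. The quadriceps controls of each set were told apart by column name and by the authors' group means, which 3 libraries matched in 1999 of 1999 genes. The members and gene lists were chosen with earlier results of these data known.

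After TMM scaling, genes were kept if their mean log2 CPM exceeded 0, and 16 comparisons were tested with the two-sided quasi-likelihood F-test of edgeR 4.0.16 (R 4.3.3), checked on simulated counts. A call needs an unadjusted p of at most 0.05, the study's limit, and a fold above 1.5, and no p was adjusted across comparisons. The interaction of tissue and temperature was tested within a table. Named are all members and the 3 genes most alike each member. Of each of 8 pathway lists, up to 4 called genes with the largest changes were drawn per comparison. Only a part of these is named. The 18 marker lists were summed as CPM of library totals. Alternatives were edgeR's exact test, DESeq2 1.42.0, library size only, filterByExpr, the lowest filter (over 1 count), the adjusted p, each library left out, the replicate block and all controls of brain and quadriceps. Added after seeing the data were pgVAT without 2 libraries, the interaction without pgVAT, and libraries left out in the interaction fits. No source says that reads carried molecular identifiers.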

Additional observations from a re-analysis of the deposited data

Results flagged for a closer look

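A response that differed between tissues was found at 10 °C for Dnajb9 (adjusted p = 0.015), Sesn2 (0.025), Asns (0.030) and Xbp1 (0.043), and at 34 °C for Ddit3 (0.00035) and Xbp1 (0.0040), each by the test of all interaction terms in edgeR. For Dnajb9 at 10 °C the called tissue was ingSAT (log2 change 0.99), while iBAT had -0.44. For Sesn2 it was iBAT (-1.06), with log2 changes from -0.44 to 0.18 in the other 7 tissues of the table. For Asns liver (-0.997) and spleen (-0.82) were called, and pgVAT had 0.46. For Xbp1 ingSAT had -0.70 and liver 0.42.

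Dixon's criterion was applied to each member in the groups of 5 or 6 single mice, 40 tests that share libraries and are not independent. In 4 of them a library was far from the others, where chance gives about 1 in 20. In bone marrow at 10 °C it was replicate 1 for both Ddit3 (35.2 CPM, the others 27.7 to 30.3) and Asns (133.1 CPM, the others 89.8 to 103.2). In spinal cord it was 22 °C replicate 3 for Ddit3 (19.4 CPM, the others 17.9 to 18.2) and 10 °C replicate 4 for Sesn2 (23.3 CPM, the others 17.3 to 18.5).

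The brain library that was left out (22 °C replicate 2, with hepatocyte markers) read above all 5 other brain libraries for Hspa5 (884.7 CPM, the others 365.8 to 567.8), Xbp1 (211.2 CPM, 107.0 to 140.9), Dnajb9 (27.4 CPM, 21.2 to 25.7) and Trib3 (2.29 CPM, 0.64 to 0.85). It read below all of them for 5 members, among them Asns (81.4 CPM, 165.4 to 190.4).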

How the results depend on the processing

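Of the 20 called pairs of gene and tissue, 13 kept their call in every alternative other than the adjusted p and 7 lost it in at least 1. With an adjusted p under 0.05 as the limit 7 of the 20 kept it, 2 at 10 °C and 5 at 34 °C. Of 254 values under alternatives, the adjusted p included, 216 kept the direction and the call, 38 kept the direction and lost the call, and 0 reversed. At 10 °C, 13 pairs were called in the main comparisons, 4 had an adjusted p under 0.05, and the count ran from 11 to 15 when single libraries were left out. At 34 °C it was 7, and 6 to 9 without single libraries. The number of members whose 10 °C response differed between tissues was 4 and ran from 2 (without iBAT 22 °C replicate 2 or spleen 22 °C replicate 3) to 7 (without pgVAT 10 °C replicate 2), and was 4 without pgVAT. At 34 °C it was 2 and ran from 2 to 4 (without iBAT 34 °C replicate 2). Calls were also gained, by 16 pairs in at least 1 alternative, among them Chac1 in ingSAT at 10 °C (in 7, at -1.25 to -0.93) and Atf4 in pgVAT under DESeq2 (0.60) and without 10 °C replicate 2 (0.79). The cause of these shifts was not tested. In quadriceps the count of members that differed between 10 °C and 34 °C was 0 with every library left out in turn.

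Replicate numbers did not pair the samples. Of 33 pairs of libraries with the same number 8 correlated best with each other, with correlations of deviations from -0.689 to 0.429, and in 0 of 10 tissues was every pair above 0.1. With the replicate number as a block the calls of Hspa5 in pgVAT (1.16, adjusted p = 0.79) and Atf3 in brain (0.66, adjusted p = 0.88) at 10 °C were lost, 12 pairs were called at 10 °C, and 2 members (Asns and Sesn2) differed between tissues. Depth limits Trib3, Atf3 and Chac1 most, which lie near 1 CPM in several tissues.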
